A study of Homo sapiens with 36 samples.

Results

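The genes described here encode the 5 subunits of the transcription factor NF-κB (NFKB1, NFKB2, REL, RELA and RELB). They also encode 5 proteins listed here as inhibitors of the pathway (NFKBIA, NFKBIB, NFKBIE, NFKBIZ and TNFAIP3). They were taken by symbol, each from its own Ensembl gene, and are 10 of the 57500 genes counted in the files. RNA was sequenced from THP-1 cells, a human line of leukaemic monocytes, which had been transduced with lentiviral particles to express a non-target short hairpin RNA (shNT) or one against the nuclear receptor NR4A2 (shNR4A2) or NR4A3 (shNR4A3). Every library therefore comes from a transduced line, shNT included, and each knockdown rests on 1 depleted line. The lines were kept for 4 h in buffered medium at 5% CO2 (control) or 10% CO2 (hypercapnia), and either stayed without LPS (basal) or received LPS, a bacterial cell wall component, at 2.5 µg/ml for the last 2 h. The 3 lines, 2 CO2 levels and 2 LPS states made 12 conditions with 3 replicate libraries each, 36 in all. The study's text describes the replicates as individual experiments, and the sample records number them without saying whether a number marks the same experiment in every condition.

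NF-κB binds DNA as dimers of its subunits. RELA, REL and RELB carry the domains that activate transcription, whereas NFKB1 and NFKB2 encode precursors that are cut to DNA-binding partners. In resting monocytes the dimers are held in the cytoplasm by IκB proteins (the products of NFKBIA, NFKBIB and NFKBIE, and the uncut precursors). LPS acts through the receptor TLR4 and the IκB kinase to release them. The genes of several IκB proteins and of the ubiquitin-editing enzyme TNFAIP3 are themselves NF-κB targets, which gives the pathway its negative feedback, and NFKBIZ encodes a nuclear IκB protein that is made after LPS. RELB, the partner of the processed NFKB2 product in the alternative pathway, is known as a subunit that responds to CO2.

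Feedback of this kind runs through κB sites in the members' promoters, so the stretches that hold such letters are shown first. The κB consensus was searched on both strands of RefSeq promoter windows of GRCh38.p14, each of 300 bases, 250 before and 50 after an annotated start. It was found in 11.3% of the 35116 windows and in 13.3% of the 27305 genes of that table. The table held 8 of the 10 members, with 14 windows, and did not hold RELB or NFKBIE. At least 1 match lay in 9 of the 14 windows and in 7 of the 8 genes, all but RELA. The lines below give one stretch of each of these 7 genes, 5′ to 3′ on the gene's strand with the match in capitals. Capitals that run past a single consensus length are overlapping matches, and TNFAIP3 carries a pair of separate ones.
NFKB1: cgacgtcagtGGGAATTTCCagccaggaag
NFKB2: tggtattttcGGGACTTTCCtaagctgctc
REL: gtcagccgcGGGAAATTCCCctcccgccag
NFKBIA: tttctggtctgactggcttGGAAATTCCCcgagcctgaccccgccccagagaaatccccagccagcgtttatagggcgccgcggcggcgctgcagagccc
NFKBIB: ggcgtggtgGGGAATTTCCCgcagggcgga
NFKBIZ: gcgcgctgtcGGGGTTTCCCggtgaagggc
TNFAIP3: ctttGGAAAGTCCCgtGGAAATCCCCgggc

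These stretches lie at chr4:102501300-102501329 (plus strand, NFKB1), chr10:102395674-102395703 (plus, NFKB2), chr2:60881518-60881547 (plus, REL), chr14:35404750-35404849 (minus, NFKBIA), chr19:38899932-38899961 (plus, NFKBIB), chr3:101849265-101849294 (plus, NFKBIZ) and chr6:137867188-137867217 (plus, TNFAIP3). Counted upstream from the start site of the window, the first base of the match was at 49 bases in NFKB1, 21 in NFKB2, 47 in REL, 81 in NFKBIA, 28 in NFKBIB, 239 in NFKBIZ and 67 in TNFAIP3. The NFKBIA stretch overlapped no annotated exon. Exons of other annotated genes overlap the windows of NFKB1, RELA, NFKBIB and NFKBIZ, and since the strand setting of the counting is not stated, reads of overlapping genes cannot be told apart from those of the member. Neither of the 2 windows of RELA held a match, and the 100 bases before its first start (chr11:65663858-65663957, minus strand, overlapping only an exon of the noncoding gene RELA-DT) are shown for contrast.
RELA: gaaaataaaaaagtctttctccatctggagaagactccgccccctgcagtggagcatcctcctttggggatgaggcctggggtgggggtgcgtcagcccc

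A match is a run of letters and not a binding site, and its absence from a window says nothing of the factor. Of the pathway genes described further on, 8 of 17 target genes, 6 of 14 other inhibitors, 2 of 11 kinases and 2 of 9 adaptors in the table held a match.

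The libraries held 16171161 to 23929138 counts, with a median of 19639071. Monocyte markers were present (SPI1, a myeloid transcription factor, at 467 to 1132 TPM, a count scaled by gene length and library total). Among the others, LYZ had a median of 522 TPM, FCGR1A 110, CD14 23.8 and CD68 3.10, and FCN1 was near 0 with a median of 0.04 TPM. Of the NK cell markers, NKG7 had a median of 45.1 TPM and NCAM1 8.35, whereas KLRD1 had a median of 0. NR4A2 was lower in shNR4A2 than in shNT cells in each of the 4 conditions, with a log2 fold change of -0.91 to -1.67. NR4A3 was lower in shNR4A3 cells in 3 of 4 conditions (-2.47 at 5% CO2 without LPS, and -0.82 and -1.11 with LPS). At 10% CO2 without LPS it was -0.39 with an adjusted p of 0.735 (edgeR), so the knockdown could not be checked there. Basal NR4A3 was near the floor, with 0.18 to 0.69 TPM in shNT and 0.03 to 0.23 TPM in shNR4A3 cells, so -2.47 rests on few transcripts. With LPS it had 30.6 to 38.6 TPM in shNT and still 12.5 to 20.0 TPM in shNR4A3 cells. At 10% CO2 + LPS each depleted line also differed from shNT in the receptor not targeted (edgeR). NR4A2 was lower in shNR4A3 cells there (-0.32, adjusted p = 0.017), and NR4A3 was higher in shNR4A2 cells (0.57, 0.0030). In the other conditions the receptor not targeted was not called. In each of the 3 lines, replicate 2 at 5% CO2 + LPS stood apart from its fellows in several members, and results that rest on these 3 libraries are given with and without them. Libraries that carried the same replicate number in different lines deviated from their condition means together in 7 of 8 comparisons of lines, with a median correlation of 0.44 over 9274 genes.

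Without LPS the members covered a wide range of levels, and NFKBIA had the most transcripts in each line at both CO2 levels. In shNT cells at 5% CO2 the median level per gene length was 118 TPM for NFKBIA, 75.9 for RELA, 71.1 for NFKBIE, 50.8 for NFKB1 and 41.0 for RELB. Below these came NFKBIB at 35.4 TPM, NFKB2 at 25.7, TNFAIP3 at 22.4, REL at 9.21 and NFKBIZ at 3.24. In that order the 3 libraries of neighbours overlapped for RELA and NFKBIE, for RELB and NFKBIB, and for NFKB2 and TNFAIP3, and the other neighbours did not overlap. In shNR4A3 cells at 5% CO2 NFKBIE, at 100.4 to 122.8 TPM, lay above RELA, at 70.0 to 82.1 TPM. With LPS in shNT cells at 5% CO2 the order was led by NFKBIA at 1783 TPM, TNFAIP3 at 1235, NFKBIZ at 498 and NFKB2 at 434. It ended with NFKBIB at 96.5, RELA at 83.3 and REL at 59.7. NFKBIZ thus went from the last place to the third, while RELA went from the second to the ninth. Levels of NFKBIZ and NFKB2, NFKB2 and NFKB1, NFKB1 and RELB, and NFKBIB and RELA overlapped between libraries in that state. As a share of the summed TPM of the 5 subunits, RELA had a median of 41.8% over the 18 basal libraries and 4.62% over the 18 LPS libraries. NFKB2 had 12.1% and 33.9%, NFKB1 25.3% and 33.0%, RELB 16.4% and 24.6%, and REL 4.17% and 4.05%.

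**Figure D1:**
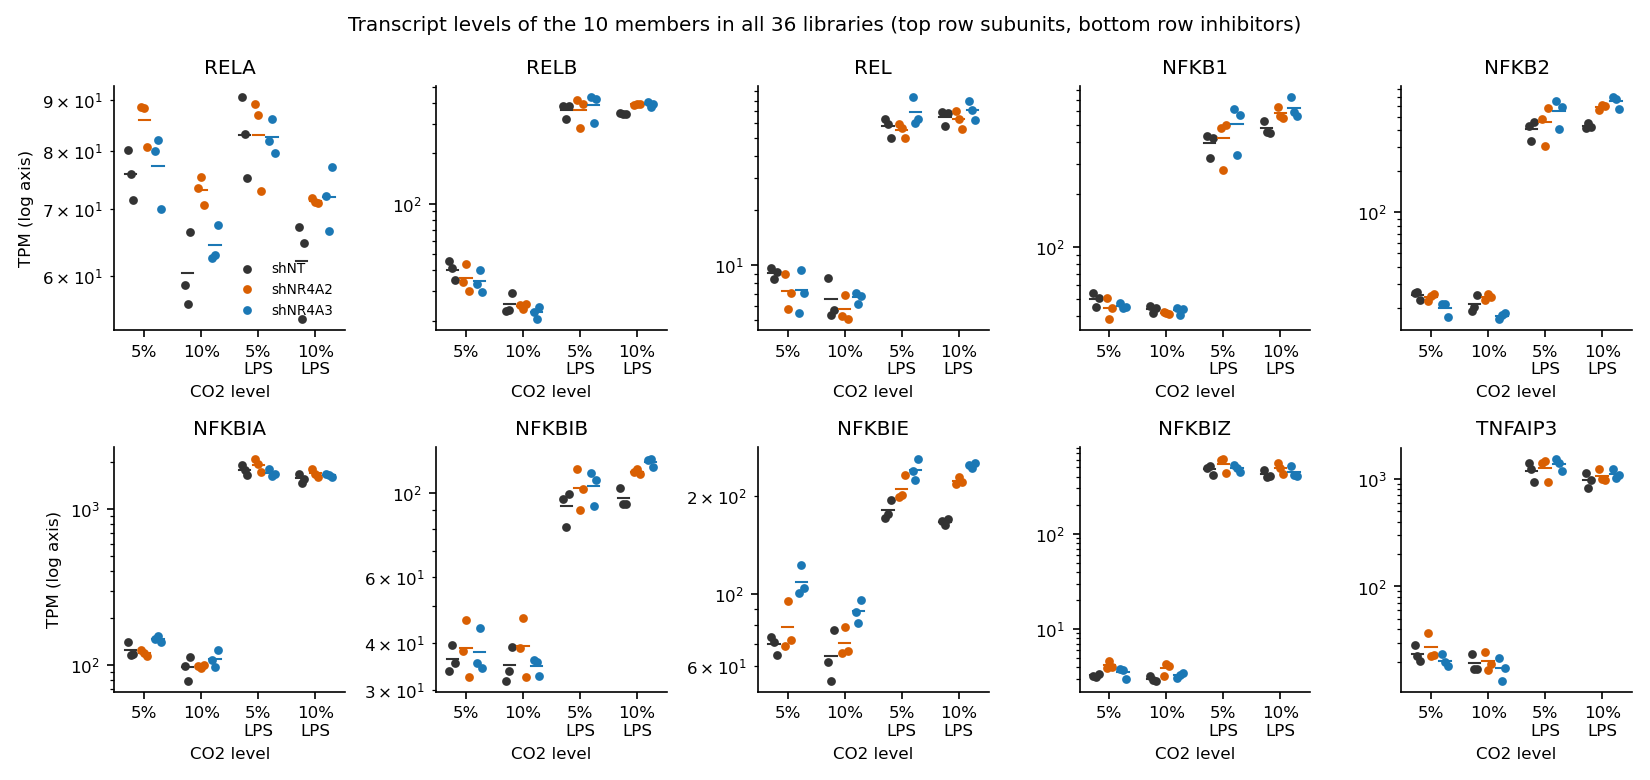
Level of each member (TPM, log axis) in each of the 36 libraries, by condition. RELA lay between 54.3 and 90.6 TPM in every library, whereas the 18 LPS libraries of every other member lay above its 18 basal ones.

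LPS raised nearly all of the members in all lines and at both CO2 levels. Of the 60 pairs of a member and a comparison (LPS against basal, 6 comparisons), 58 were called at an adjusted p under 0.05, all of them higher with LPS, and the number was also 58 without the 3 libraries that stood apart. In shNT cells 10 of 10 members were called higher at 5% CO2, where 11.2% of the 17720 genes tested were, and 10 of 10 at 10% CO2, where 15.1% were. The counts were 9 of 10 in shNR4A2 cells at 5% CO2 (8.91% of all genes) and 9 of 10 at 10% CO2 (16.5%), and 10 of 10 in shNR4A3 cells at both (11.9% and 20.6%). The median log2 fold change of the members was 3.30 to 4.19 over the 6 comparisons, and that of all genes was between -0.01 and 0.00. Scaling by library size only, without TMM, moved the median of all genes to between -0.18 and -0.25 and the share of higher genes among the calls from between 47.0% and 49.2% to between 22.0% and 24.3%.

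The genes listed as inhibitors held both the strongest and some of the weakest of these responses. NFKBIZ had 2.88 to 4.62 TPM in the 18 basal libraries and 397 to 618 TPM in the 18 LPS libraries, with log2 fold changes of 7.28 to 7.42, which is 155-fold to 172-fold. TNFAIP3, whose product trims ubiquitin chains that carry the signal, went from between 13.4 and 37.2 TPM to between 828 and 1540 TPM, with log2 fold changes of 5.78 to 6.29. NFKBIA, the classical IκB of the feedback loop, went from between 79.8 and 154 TPM to between 1477 and 2105 TPM (3.76 to 4.39). In none of the 3 did a basal library reach an LPS library. The other IκB genes moved less: the log2 fold changes were 1.58 to 2.07 in NFKBIB and 1.37 to 1.94 in NFKBIE. NFKBIE already had 54.1 to 122.8 TPM in basal libraries and had 163 to 261 TPM with LPS, and NFKBIB went from between 31.8 and 46.7 TPM to between 81.0 and 123.3 TPM.

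Among the subunits, NFKB2 had the largest log2 fold changes, at 4.27 to 5.50, followed by RELB at 3.39 to 4.40, NFKB1 at 3.21 to 4.14 and REL at 2.89 to 3.75. NFKB2 went from between 16.5 and 26.0 TPM to between 307 and 702 TPM, and RELB from between 20.4 and 45.3 to between 283 and 433. REL, the subunit with the fewest transcripts in basal cells, went from between 5.07 and 9.68 TPM to between 49.97 and 83.7 TPM. RELA stood apart from the other subunits. Its basal and LPS libraries overlapped in TPM (56.2 to 88.6 and 54.3 to 90.6), and its log2 fold changes were 0.35 (adjusted p = 0.0096) and 0.31 (0.023) in shNT cells at 5% and 10% CO2, and 0.31 (0.020) and 0.44 (0.00029) in shNR4A3 cells. In shNR4A2 cells they were 0.22 (0.26) and 0.24 (0.052), and with a term for the replicate number the value at 10% CO2 passed (0.24, adjusted p = 0.021, where 20.2% of all genes were called higher). With library size only, the 4 calls of RELA were lost, with log2 fold changes of 0.17, 0.09, 0.12 and 0.18. The first of them was also lost without 5% CO2 replicate 3 or 5% CO2 + LPS replicate 1 of shNT cells (adjusted p up to 0.059). The second was lost without 10% CO2 replicate 2 or 10% CO2 + LPS replicate 1 or 3 (up to 0.126), and the third without 5% CO2 replicate 3 or 5% CO2 + LPS replicate 1 or 3 of shNR4A3 cells (up to 0.095).

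**Figure D2:**
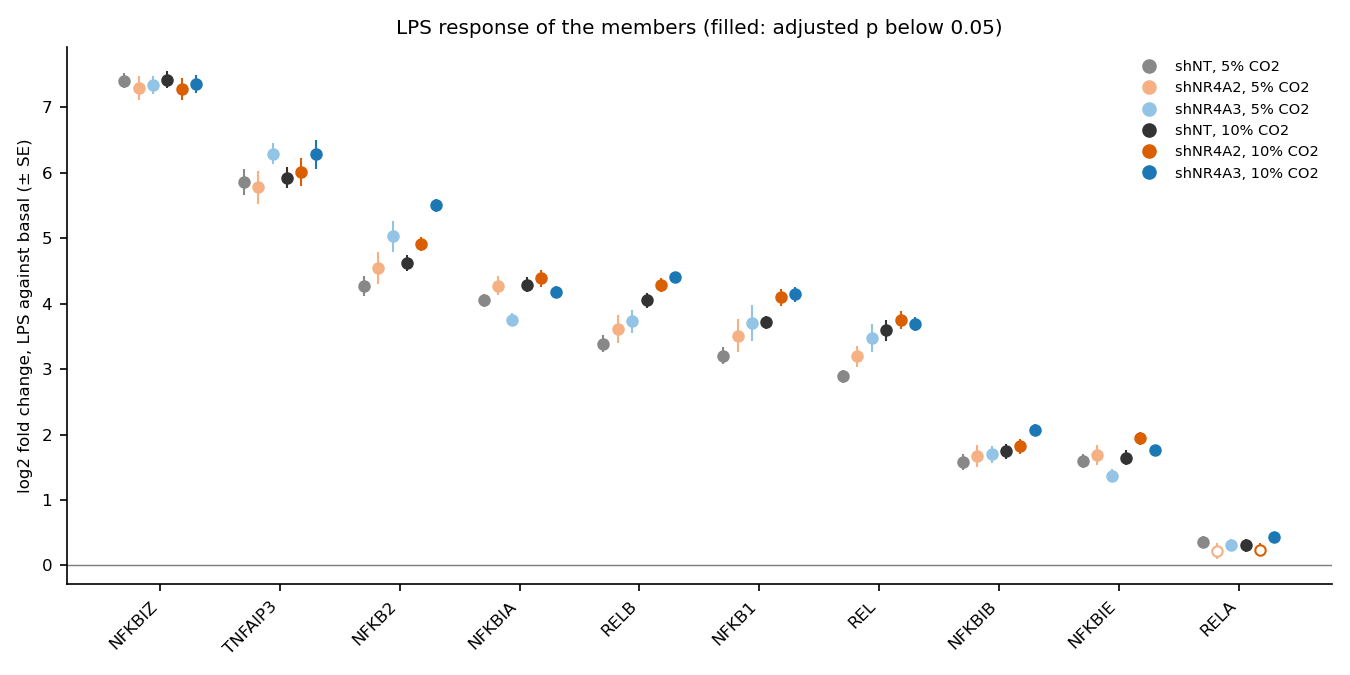
Log2 fold change of each member with LPS against basal in the 6 comparisons of line and CO2 level, with bars of 1 standard error. NFKBIZ was at 7.28 to 7.42 in all 6, while RELA stayed between 0.22 and 0.44.

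The members did not vary alike among the LPS libraries. At 5% CO2 + LPS, replicate 2 lay below its condition mean in NFKB1 by a log2 difference of -0.31 in shNT, -0.65 in shNR4A2 and -0.63 in shNR4A3 cells. NFKB2 lay at -0.33, -0.62 and -0.48, RELB at -0.22, -0.44 and -0.41, and NFKBIB at -0.23, -0.28 and -0.25. In TPM these were NFKB1 levels of 325, 276 and 335 against 421 to 619 in the other 5% CO2 + LPS libraries, with no overlap. The genes listed as inhibitors with the largest LPS response did not share this: TNFAIP3 lay at 0.04, 0.14 and -0.03, and NFKBIZ at 0.08, 0.10 and -0.05. NFKBIA lay at -0.04, -0.08 and -0.14. Over the 18 LPS libraries, deviations from the condition means went together in NFKB1 and RELB (Pearson r = 0.967), NFKB2 and RELB (0.938), RELB and NFKBIB (0.939), and NFKBIZ and TNFAIP3 (0.916). NFKB2 and TNFAIP3 had r = -0.171, and NFKBIE and TNFAIP3 -0.327. These values describe libraries that share replicate numbers between lines. Of the variance of log2 CPM over the 18 LPS libraries, the replicate number within a CO2 level took 74.3% for RELB, 65.9% for NFKBIZ, 65.8% for TNFAIP3 and 63.4% for NFKBIA.

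**Figure D3:**
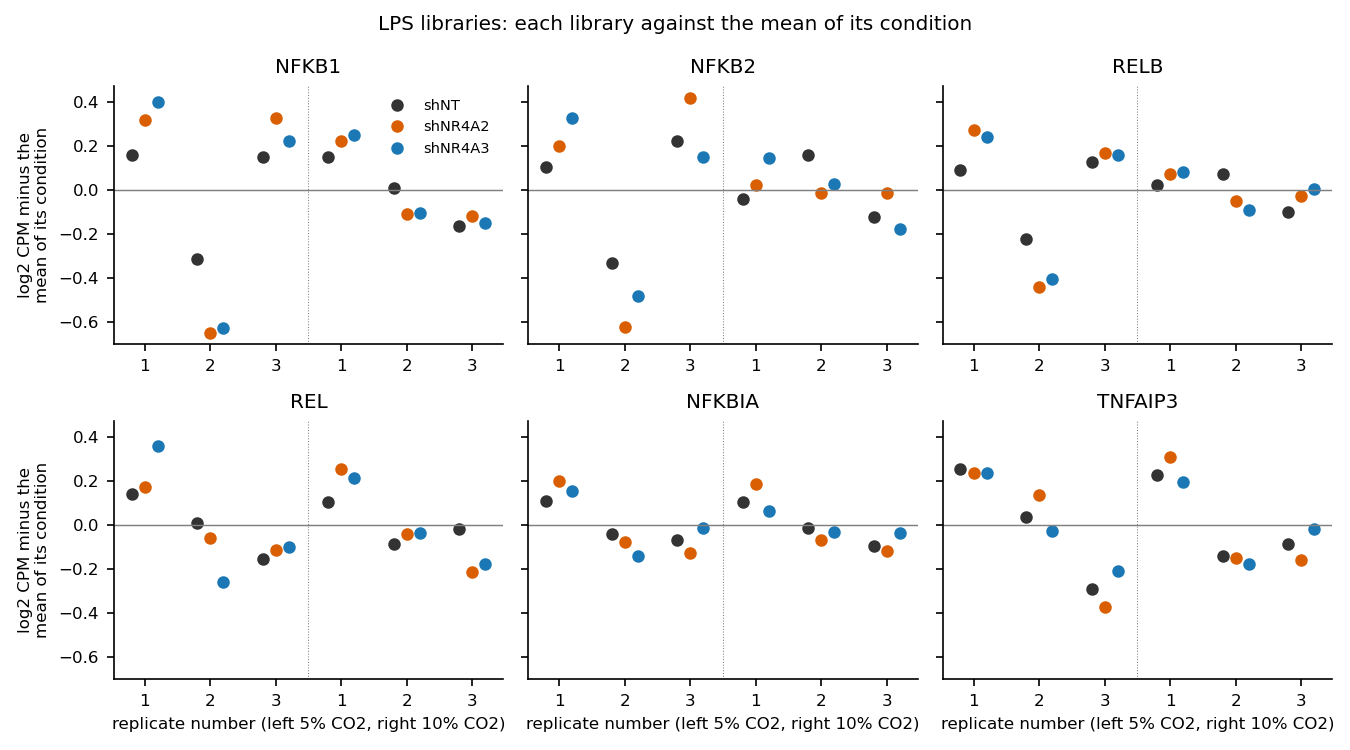
Deviation of each LPS library from the mean of its condition (log2), by replicate number, for the 3 lines at 5% and 10% CO2. The members shown are NFKB1, NFKB2, RELB, REL, NFKBIA and TNFAIP3. At 5% CO2, replicate 2 was lowest in NFKB1, NFKB2 and RELB in all 3 lines, but not in TNFAIP3.

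Hypercapnia in basal cells was accompanied by fewer transcripts of RELB. RELB had 45.3, 41.0 and 34.9 TPM in shNT cells at 5% CO2 and 22.9, 23.0 and 29.4 at 10% CO2. In shNR4A2 cells it had 34.2, 43.6 and 30.03 TPM at 5% CO2 and 24.9, 23.4 and 25.0 at 10% CO2. In shNR4A3 cells it had 33.2, 40.2 and 29.8 TPM and then 22.6, 20.4 and 24.3. In each line, all 3 libraries at 10% CO2 lay below all 3 at 5% CO2. The log2 fold change was -0.60 in shNT cells (standard error 0.14, adjusted p = 0.062), -0.50 in shNR4A2 cells (0.15, 0.40) and -0.59 in shNR4A3 cells (0.11, 0.026). RELB and NFKBIA were called in shNR4A3 cells, which makes 2 of 10 members where 1.13% of all genes were called. None was called in shNT cells (0.615% of all genes, 4 of 10 members at an unadjusted p under 0.05) or in shNR4A2 cells (0.0113%, 1 of 10). In edgeR's quasi-likelihood test, leaving out shNR4A3 5% CO2 replicate 2 or any of the 3 shNR4A3 libraries at 10% CO2 took both calls below the threshold (adjusted p up to 0.206 for RELB and 0.275 for NFKBIA).

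In a fit of 1 CO2 effect over the 3 lines, 9 libraries against 9, RELB changed by -0.57 on the log2 scale (standard error 0.081, adjusted p = 5.5e-05), a level at 10% CO2 of 0.675 times that at 5%. Over all lines RELB was between 20.4 and 29.4 TPM at 10% CO2 and between 29.8 and 45.3 TPM at 5% CO2, without overlap. NFKBIA was lower by the same test (-0.30, standard error 0.062, adjusted p = 0.0015), with 115 to 154 TPM at 5% CO2 and 79.8 to 124 TPM at 10% CO2, which overlap. RELA was lower as well (-0.22, 0.049, 0.0030), with 70.0 to 88.6 TPM and 56.2 to 75.4 TPM. REL (-0.26, adjusted p = 0.082) and TNFAIP3 (-0.28, 0.149) did not pass, and NFKBIB was at 0.00. With no filter on low counts REL was called (-0.25, adjusted p = 0.014), and with a term for the replicate number TNFAIP3 was (-0.27, 0.0011). Replicate numbers paired the libraries in only 1 of 6 CO2 comparisons, so this call of TNFAIP3 is not that of a paired test. The 3 members called in the main fit, all lower, stand beside 17.9% of all genes called. Their median log2 fold change was -0.18 over the 10 members and 0.00 over all genes. Since libraries with one number resembled each other across lines, the 9 libraries of a CO2 level are not independent. With the counts of the 3 lines summed per condition and replicate number, 1.38% of all genes and 1 member were called, RELB (-0.58, adjusted p = 0.039), while NFKBIA (-0.30, 0.095) and RELA (-0.23, 0.131) were not. Of the variance of log2 CPM over the 18 basal libraries, CO2 took 70.4% for RELB, 46.6% for RELA and 45.3% for NFKBIA, and at most 21.0% for any other member.

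**Figure D4:**
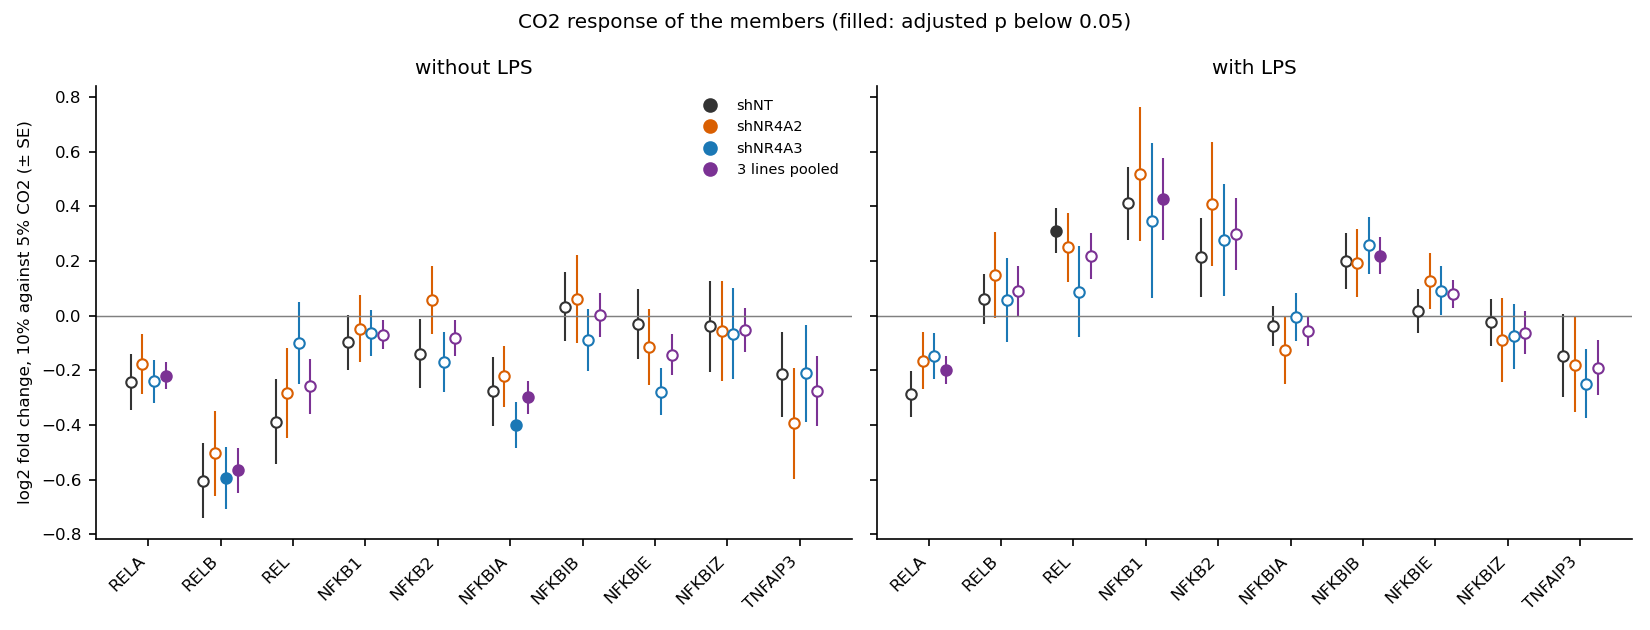
Log2 fold change of each member at 10% against 5% CO2 in the 3 lines and pooled over them, basal and with LPS, with bars of 1 standard error. RELB was at -0.50 to -0.60 in the 3 lines without LPS and at 0.06 to 0.15 with LPS.

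With LPS, RELB and NFKBIA were not called for CO2, and NFKB1 and NFKBIB were. In the pooled fit NFKB1 was higher at 10% CO2 (log2 fold change 0.43, standard error 0.15, adjusted p = 0.042), as was NFKBIB (0.22, 0.068, 0.017), and RELA was lower (-0.20, 0.052, 0.0055). That is 3 of 10 members, beside 30.8% of all genes. RELB was at 0.09 (0.50), NFKB2 at 0.30 (0.099) and REL at 0.22 (0.056). Without the 3 libraries that stood apart, which are all at 5% CO2, 21.8% of all genes were called. NFKB1 was then at 0.21 (adjusted p = 0.033) and RELA at -0.21 (0.013), both called, while NFKBIB was at 0.10 (0.138) and RELB at -0.06. The call of NFKB1 in the full set was lost without any 1 of 8 libraries (adjusted p up to 0.075): shNT 5% CO2 + LPS replicate 2, shNT 10% CO2 + LPS replicates 1 and 2, all 3 of shNR4A2 10% CO2 + LPS, shNR4A3 5% CO2 + LPS replicate 2 and shNR4A3 10% CO2 + LPS replicate 1. The call of NFKB1 was also lost with no filter on low counts (0.42, adjusted p = 0.124). REL was called with library size only (adjusted p = 0.0445), with DESeq2 (0.0432), with no filter (0.0021) and with the replicate block (0.00067). It was not called without the 3 libraries that stood apart (0.17, adjusted p = 0.253) or with counts summed over the lines (0.21, 0.270). NFKB2 was called with DESeq2 (adjusted p = 0.043) and in 1 fit to all 36 libraries (0.034). TNFAIP3 was called lower with the replicate block (-0.18, adjusted p = 0.0054). Replicate numbers did not pair the libraries in the CO2 comparisons with LPS, so the block calls of REL and TNFAIP3 are not those of a paired test. With counts summed over the lines, 0 members were called (NFKB1 at 0.43, adjusted p = 0.252) and 5.52% of all genes.

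Within single lines, REL was the only member called with LPS, in shNT cells. It had 63.2, 59.7 and 50.2 TPM at 5% CO2 and 69.6, 58.0 and 68.2 TPM at 10% CO2, which overlap. Its log2 fold change was 0.31 (standard error 0.083, adjusted p = 0.036) in a comparison that called 8.19% of all genes. The call was lost without any of 5 of the 6 libraries, all but 5% CO2 + LPS replicate 1 (adjusted p up to 0.109). Without the library that stood apart it had the same log2 fold change with an adjusted p of 0.098, and 2.69% of all genes were called. RELA was at -0.29 there (adjusted p = 0.0502). In shNR4A2 cells 0 of 10 members were called beside 0.198% of all genes, and in shNR4A3 cells 0 of 10 beside 2.13% (edgeR, with 0 and 1 members at an unadjusted p under 0.05).

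In the main fit, RELB was the 1 member whose CO2 response was called as different between the LPS states. In a fit to all 36 libraries the log2 fold change at 10% CO2 was higher with LPS than without by 0.66 (standard error 0.13, adjusted p = 0.0029), and 2.93% of all genes were called. The difference in the other subunits was 0.50 in NFKB1 (adjusted p = 0.090), 0.48 in REL (0.062), 0.38 in NFKB2 (0.177) and 0.02 in RELA (0.93). Without the 3 libraries that stood apart it was 0.51 in RELB (adjusted p = 0.0032, with 1.04% of all genes called). With counts summed over the lines it was 0.66 with an adjusted p of 0.50 (unadjusted p = 0.0040), and 0% of all genes were called. Other members were called in other settings. With DESeq2 these were NFKB1 (0.51, adjusted p = 0.030) and REL (0.49, 0.021). With the replicate block they were NFKB1 (0.51, 0.0090), REL (0.49, 0.0083) and NFKBIA (0.25, 0.015), though replicate numbers mostly did not pair the CO2 levels. The same contrast can be read from the LPS response, where RELB had log2 fold changes of 3.39, 3.62 and 3.73 at 5% CO2 and 4.05, 4.28 and 4.40 at 10% CO2 in shNT, shNR4A2 and shNR4A3 cells. The share of counts from mitochondrial genes also moved with CO2. It was 1.05% to 2.12% at 5% and 1.55% to 3.18% at 10% CO2 in basal libraries, and 1.28% to 2.19% and 1.54% to 4.15% with LPS. Its part in these results was not tested.

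In the line depleted of NR4A3, the member that stood out was NFKBIE, the gene of the IκB protein known for binding REL and RELA dimers. In shNR4A2 cells NFKBIE was called at 10% CO2 + LPS only, as was NFKB2. NFKBIE had 73.8, 71.1 and 64.9 TPM in shNT cells at 5% CO2, 69.0, 95.5 and 72.3 TPM in shNR4A2 cells, and 100.4, 122.8 and 105 TPM in shNR4A3 cells. With LPS it had 171, 177 and 195 TPM in shNT cells at 5% CO2, 199.6, 201 and 233 TPM in shNR4A2 cells, and 239, 224 and 261 TPM in shNR4A3 cells. In all 4 conditions every shNR4A3 library lay above every shNT library. Its log2 fold changes in shNR4A3 against shNT cells were 0.69 (standard error 0.10, adjusted p = 0.00059) at 5% CO2 and 0.43 (0.12, 0.033) at 10% CO2, and with LPS 0.47 (0.10, 0.019) and 0.55 (0.067, 0.00013). Without LPS the call at 10% CO2 was lost without shNT 10% CO2 replicate 2 or any of the shNR4A3 libraries at 10% CO2 (adjusted p up to 0.195). With LPS the call at 5% CO2 was lost without replicate 1 or 2 of shNT or replicate 1 or 3 of shNR4A3 cells at 5% CO2 + LPS (up to 0.095). The line took 67.3% of the variance of NFKBIE over the basal libraries and 79.7% over the LPS libraries. Monocyte markers moved with the lines too. Their summed level, over 11 genes, was 879 to 1287 TPM in the 12 shNT libraries, 1555 to 1924 TPM in shNR4A2 and 1677 to 2317 TPM in shNR4A3 libraries. SPI1 and LYZ weighed most in that sum, with medians of 693 and 522 TPM over all libraries. FCGR1A followed at 110 TPM, and the other markers had medians of at most 92.9 TPM. Of the 10 markers tested, 3, 3, 4 and 5 were called higher in shNR4A3 than in shNT cells at 5% CO2, 10% CO2, 5% CO2 + LPS and 10% CO2 + LPS, and 1 was called lower in the last. In shNR4A2 cells 3, 4, 2 and 5 were called higher. Their part in the differences between lines was not tested. In the check of the knockdown, the level of NR4A3 itself did not pass the test at 10% CO2 without LPS.

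In shNR4A3 against shNT cells, 6 of 40 pairs of a member and a condition were called, all higher in shNR4A3. They were 1 of 10 members at 5% CO2 (6.19% of all genes called), 1 at 10% CO2 (6.85%), 1 at 5% CO2 + LPS (5.41%) and 3 at 10% CO2 + LPS (14.5%). The last 3 were NFKBIE, NFKB2 (0.57, standard error 0.095, adjusted p = 0.0019) and NFKBIB (0.30, 0.078, 0.021). NFKB2 had 419, 457 and 422 TPM in shNT cells and 702, 682 and 575 TPM in shNR4A3 cells at 10% CO2 + LPS, without overlap. NFKBIB had 103, 93.6 and 93.4 TPM and 123.3, 122.6 and 117 TPM, also without overlap, and its call was lost without shNT replicate 3 or shNR4A3 replicate 1 of that condition (adjusted p up to 0.126). Without the libraries that stood apart, NFKB1 (0.54, adjusted p = 0.0053) and NFKB2 (0.55, 0.0056) were called at 5% CO2 + LPS together with NFKBIE (0.52, 0.011), and the share of all genes called was 5.77%.

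In shNR4A2 against shNT cells 2 of 40 pairs were called, both at 10% CO2 + LPS, where 18.9% of all genes were. NFKB2 had 565, 610 and 601 TPM in shNR4A2 cells (log2 fold change 0.42, standard error 0.084, adjusted p = 0.0041), and NFKBIE had 218, 229.6 and 221 TPM against 168, 163 and 169.8 TPM in shNT cells (0.38, 0.070, 0.0023). Neither overlapped with shNT. No member was called at 5% CO2 (5.69% of all genes called), 10% CO2 (7.95%) or 5% CO2 + LPS (6.21%). At an unadjusted p under 0.05 there were 0, 1 and 1 of them. The comparisons of both knockdown lines share their shNT libraries.

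A term for the replicate number raised these counts, and it raised those of all genes as well. With it, 12 of 40 pairs were called for shNR4A2 and 16 of 40 for shNR4A3. For shNR4A2 they were 2 members at 5% CO2 (REL at -0.34 and RELA at 0.18, beside 21.5% of all genes), 0 at 10% CO2 (11.9%), 3 at 5% CO2 + LPS (NFKBIB, NFKBIE and NFKBIZ at 0.21 to 0.28, 24.7%) and 7 at 10% CO2 + LPS (34.8%). The last 7 were all members but REL, NFKBIA and TNFAIP3, at 0.16 to 0.42. For shNR4A3 they were 2 at 5% CO2 (NFKBIA at 0.29 and NFKBIE at 0.69, 13% of all genes), 2 at 10% CO2 (NFKB2 at -0.31 and NFKBIE at 0.44, 13.5%), 6 at 5% CO2 + LPS (18.7%) and 6 at 10% CO2 + LPS (24.9%). NFKB1, NFKB2, NFKBIB, NFKBIE and TNFAIP3 were called in both of the latter, at 0.18 to 0.57, with REL at 5% and RELA at 10% CO2. NFKB2 thus had opposite signs in basal and in LPS-treated shNR4A3 cells.

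**Figure D5:**
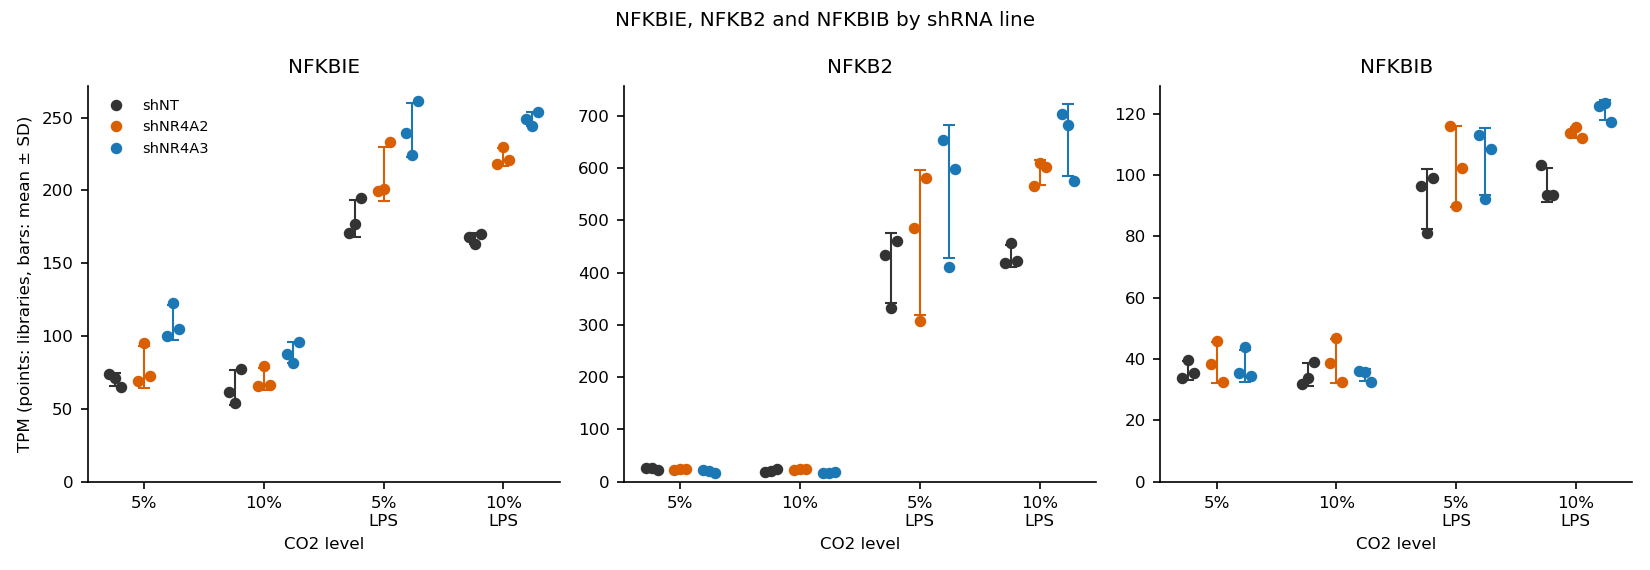
Levels of NFKBIE, NFKB2 and NFKBIB (TPM) in each library of the 3 lines, by CO2 level and LPS state. In NFKBIE the shNR4A3 libraries lay above the shNT libraries in all 4 conditions.

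The LPS response of NFKB2 differed between lines. At 10% CO2 its log2 fold change with LPS was higher in shNR4A3 than in shNT cells by 0.87 (standard error 0.14, adjusted p = 0.013), in a test that called 0.198% of all genes. NFKB2 had 16.5, 17.5 and 18.2 TPM in basal shNR4A3 cells at 10% CO2 and 19.0, 20.2 and 24.6 TPM in shNT cells, so that it was lower in shNR4A3 before LPS and higher after it in every library. Without shNT 10% CO2 + LPS replicate 3 the adjusted p was 0.059, and in 1 fit to all 36 libraries it was 0.547 with the same difference of 0.87. When the replicate number was added as a block, NFKB2 (0.88, adjusted p = 0.0018) and NFKB1 (0.41, 0.026) were called, beside 1.01% of all genes. At 5% CO2 the difference for NFKB2 was 0.77 with an adjusted p near 1, and 0 members and 0% of all genes were called, with 3 members at an unadjusted p under 0.05. Without the libraries that stood apart NFKB2 was called there (0.85, adjusted p = 0.040), beside 0.181% of all genes. Between shNR4A2 and shNT cells 0 members were called at 5% CO2 (0% of all genes) or at 10% CO2 (0.0451%), with 0 and 1 at an unadjusted p under 0.05.

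No member's CO2 response was shown to differ between lines. Of 40 pairs, 0 were called, and 0% of all genes were called in each of the 4 tests, basal and with LPS, of shNR4A2 or shNR4A3 with shNT. edgeR gave 192 to 458 genes at an unadjusted p under 0.05 in these tests and 0 of the members, and DESeq2 called 0 genes. For RELB without LPS the difference was 0.10 in shNR4A2 (2 standard errors on each side, -0.34 to 0.54) and 0.00 in shNR4A3 cells (-0.37 to 0.38). The values do not tell apart differences of the RELB response that lie within these ranges.

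The genes around the members were read from lists of 13 kinases of the pathway, 10 TRAF and ubiquitin ligase adaptors, 15 other inhibitors and 20 target genes. With LPS in shNT cells at 5% CO2, all 20 targets were higher, with a median log2 fold change of 6.81, and 20 of 20 were higher in each of the other 5 LPS comparisons too. Of all genes, 11.2% were called higher and 11.6% lower in this comparison. The chemokine genes CCL4 (9.71) and CXCL3 (9.12) led them. The signalling genes upstream moved much less: 5 of 13 kinases were higher and 1 lower (median 0.18), and 5 of 10 adaptors were higher and 1 lower (median 0.38). MAP3K8, a kinase bound by the uncut NFKB1 product, was at 3.41 and RIPK2 at 2.09, while TAB1 was at -0.40. BIRC3, a ubiquitin ligase of the alternative pathway, was at 5.45 and TRAF1 at 4.63, while RNF31, of the linear ubiquitin ligase, was at -0.41. Of the other inhibitors 8 of 15 were higher and 3 lower (median 0.39). TNIP3, a partner of TNFAIP3, was at 7.53 and the RNase gene ZC3H12A at 5.38, whereas PDLIM2 (-0.71) and OTUD7B (-0.48) were lower. Without the library that stood apart, the counts of the 4 lists in these cells were the same.

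In the pooled CO2 comparison without LPS, where 17.9% of all genes were called, 6 of 20 targets were lower and 0 higher, with a median of -0.26, and TNF (-0.99) and IER3 (-0.75) moved most. The other inhibitors had 3 of 15 lower and 0 higher, among them the nuclear IκB genes NFKBID (-0.75) and BCL3 (-0.66). Of the kinases 2 of 13 were lower (RIPK1 at -0.59 and TAB2 at -0.19), and of the adaptors 2 of 10 were higher (BIRC3 at 0.40 and TRAF3 at 0.25) and 1 lower (TRAF6 at -0.34). The 9 libraries of a CO2 level are not independent, and with counts summed over the lines, where 1.38% of all genes were called, 0 targets, 0 adaptors, 1 kinase and 2 other inhibitors were. The genes called were RIPK1 (-0.59, adjusted p = 0.026), BCL3 (-0.65, 0.031) and NFKBID (-0.76, 0.042), while TNF was at -1.04 (0.063).

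With LPS, where 30.8% of all genes were called in the pooled CO2 comparison, 4 of 20 targets were called, which is below that share. They were 3 higher and 1 lower at 10% CO2 (median 0.13), with CXCL10 at 0.93, TNFAIP2 at 0.43 and IRF1 at -0.20. Of the 13 kinases 5 were higher and 2 lower, with MAP3K8 at 1.00, RIPK2 at 0.59, RIPK1 at -0.42 and TAB1 at -0.27. The 10 adaptors had 2 higher (TRAF3 at 0.49 and TRAF2 at 0.26) and 2 lower (RNF31 at -0.27 and SHARPIN at -0.20), a share near that of all genes. The other inhibitors had 4 and 4 of 15, led by TNIP3 at 0.68 and PDLIM2 at -0.55. Without the 3 libraries that stood apart, where 21.8% of all genes were called, 7 kinases, 4 adaptors, 7 other inhibitors and 2 targets were. CXCL10 (0.68, adjusted p = 0.078), TNFAIP2 (0.22, 0.074) and TAB1 (-0.19, 0.059) were then not called. MAP3K8 was at 0.72, RIPK2 at 0.48, TRAF3 at 0.34, TNIP3 at 0.44 and PDLIM2 at -0.39, all called. With counts summed over the lines (5.52% of all genes) RIPK1 was the 1 gene of the 4 lists called (-0.41, adjusted p = 0.031).

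The CO2 response was called higher with LPS than without in 3 kinases, 3 other inhibitors and 3 targets, lower in 1 kinase, and 0 adaptors were called, beside 2.93% of all genes. Without the 3 libraries that stood apart it was called higher in 3 kinases, 2 other inhibitors and 1 target (1.04% of all genes). With counts summed over the lines 0 genes of the 4 lists and 0% of all genes were called. All medians of all genes in these comparisons were 0.00.

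The genes with the pattern most like each member over the 36 libraries, by Pearson correlation of log2 CPM, were mostly other genes that LPS raised. They were CXCL8 for NFKBIA (0.998) and for TNFAIP3 (0.997), CCL4L2 for NFKBIZ (0.997), IL23A for NFKB2 (0.997), DRAM1 for NFKB1 (0.996) and SOCS3 for RELB (0.996). LRP12 was most like REL (0.992), TNIP1 most like NFKBIB (0.990) and TLR2 most like NFKBIE (0.980). RELA, which LPS moved least, was most like PI4KB (0.942). These correlations span both LPS states and so describe mainly that contrast. Over the 18 LPS libraries alone, RELB was most like FTH1P20 (0.926), CEMIP2 (0.910) and FTH1 (0.905). FTH1 encodes the heavy chain of ferritin and FTH1P20 is a pseudogene of that family, whose reads the counting could split.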

How the data were processed

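RNA-seq of 36 THP-1 libraries was analysed. The deposited counts are whole numbers per gene without normalization: per the submitters' processing notes and the file headers, the authors used Trimmomatic 0.36 for trimming, STAR 2.5.2b for alignment (GRCh38) and featureCounts of Subread 1.5.2 for counting. The annotation release and strand setting are not given in the sources used here. Gene symbols were matched by Ensembl ID for 98.1% of genes. TPM, which scales counts by gene length and library total, used the lengths in the count files.

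Genes were kept by filterByExpr (minimum count 10, minimum total 15) over all libraries, which left 17720 and all 10 members. In each of the 31 comparisons, only libraries of the conditions compared entered the fit. They were scaled by TMM and tested with edgeR 4.0.16 (R 4.3.3; robust quasi-likelihood F test). P-values were adjusted over all genes by the Benjamini-Hochberg method, with 0.05 as the threshold. The standard error was the log2 fold change divided by the square root of F. Each result was recomputed with DESeq2 1.42.0, with RLE size factors, with library size as the sole scaling, without a filter, with a block for the replicate number, in 1 model of all 36 libraries, and without each library in turn. 2 more, without the 3 libraries that stood apart and with counts summed over lines, were added after the data were seen. The fits were tested on simulated data. Totals of 16171161 to 23929138 counts gave members 88 to 42101 counts each.

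Pairing was judged by the correlation of deviations from the condition means over 9274 genes, since the labels give numbers only. Every pair passed 0.1 in 7 of 8 comparisons of lines (all but shNR4A2 with shNT at 10% CO2), in 5 of 6 LPS comparisons (all but shNT at 5% CO2) and in 1 of 6 CO2 comparisons (shNR4A2 without LPS). Across CO2 levels the same numbers had a median correlation of 0.18. Number 2 at 10% with number 3 at 5% CO2 had 0.23 (-0.20 to 0.56), and number 3 with number 2 had 0.32 (-0.26 to 0.59). Why was not tested. Members are described in every comparison, and list genes are the 2 largest called log2 fold changes in each direction. That rule was applied to the pooled CO2 comparison without LPS after its values were seen. The members and lists were chosen with earlier results of these data known. SOD2, listed as a target, had no row matched to its symbol.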

Additional observations from a re-analysis of the deposited data

Results flagged for a closer look

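In 2 results a contrast differed between groups by a test of the difference itself. The LPS response of NFKB2 at 10% CO2 was larger in shNR4A3 than in shNT cells by a log2 difference of 0.87, with every shNR4A3 library below the shNT libraries without LPS and above them with LPS. In 1 fit to all 36 libraries the difference was 0.87 with an adjusted p of 0.547. The CO2 response of RELB, fitted over the 3 lines, was higher with LPS than without by a log2 difference of 0.66. With counts summed over the lines it was 0.66 with an adjusted p of 0.50 (edgeR). In RELB the 9 basal libraries at 10% CO2 lay below the 9 at 5% CO2, whereas with LPS both CO2 levels overlapped.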

How the results depend on the processing

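The number of LPS calls, 58 of 60, was 54 to 59 under the alternatives (57 to 58 with a library left out), and the CO2 response between lines stayed at 0 of 40 under each. Without LPS, the 2 CO2 calls within lines became 0 in 1 fit to all 36 libraries, and 0 to 4 with a library left out. With LPS, the 1 CO2 call became 2 with RLE size factors, 3 with DESeq2, 4 with no filter, 2 with the replicate block and 0 without the 3 libraries that stood apart (0 to 1 with a library left out). The 6 pooled CO2 calls became 1 with counts summed over the lines (5 to 7 with a library left out). The 2 calls of shNR4A2 against shNT became 12 with the replicate block and 1 in 1 fit to all libraries (2 to 2 with a library left out), and the 6 of shNR4A3 became 16 with the block (5 to 8). The 1 call in the LPS response between lines became 2 with no filter, 2 with the block, 2 without the libraries that stood apart and 0 in 1 fit to all libraries (0 to 1). The 1 call in the CO2 response between LPS states became 3 with DESeq2, 4 with the block and 0 with summed counts (1 to 3). The cause was not tested.

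Values that changed sign were close to 0. NFKBIB in the pooled CO2 response without LPS, at 0.0025, was -0.0042 in 1 fit to all libraries and -0.0081 with summed counts (-0.040 to 0.042 with a library left out). RELB with LPS was -0.064 without the libraries that stood apart. In the CO2 response between LPS states, RELA was -0.0090 with library size only, and NFKBIZ, at -0.0074, was 0.0028 with RLE size factors, 0.0032 with DESeq2 and 0.012 without the libraries that stood apart (-0.049 to 0.025 with a library left out). TNFAIP3 there was -0.0025 to 0.15 with a library left out. In CO2 comparisons the replicate numbers did not pair the libraries in 5 of 6, so the block result there is a count only. With 3 libraries a condition, changes as small as those of REL or RELA passed in some comparisons and not in others.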
